A study of Mus musculus with 10 samples.

Results

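Globin genes and other genes of red blood cells were followed in the embryonic forebrain of mice whose mothers ate a powder chow or a pelleted chow. The 9 genes are the beta-like globins Hbb-b1, Hbb-bs, Hbb-y and Hbb-bh1, the alpha-like globin Hba-x, the heme synthesis gene Alas2, the globin chaperone gene Ahsp, the anion exchanger gene Slc4a1 and the bisphosphoglycerate mutase gene Bpgm. They were picked by name from the table of 21225 probe sets, and 8 of them have a probe set that could be matched, while Ahsp was not analysed here. The choice was made on results of these same arrays, namely the difference between the diets and the unequal values among the pelleted chow embryos, so the values of the 8 genes between and within the diets are given as a description. Where the genes are counted past a limit, the share of all probe sets stands beside the count and nothing is read from it. Forebrain RNA was taken at embryonic day 15.5 from wild-type embryos of C57Bl/6J dams and Ts1Cje sires (B6 T(12:16)1Cje/CjeDnJ, a model of Down syndrome whose affected embryos were not used). There were 5 embryos of dams on the purified powder chow (Bioserv F3197) and 5 embryos of dams on the pelleted chow (Teklad 2918), with 1 embryo per litter and 1 Affymetrix Mouse Gene 1.0 ST array per embryo. Dams ate their chow from the start of breeding onward. By the study's list of diet components the powder chow held less iron, zinc and copper than the pelleted chow.

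Red blood cells carry oxygen on hemoglobin, a tetramer of alpha-like and beta-like globin chains that each hold a heme. In the mouse the first red cells come from the yolk sac and use the embryonic globins Hba-x, Hbb-y and Hbb-bh1, and the later ones, made in the fetal liver, use the adult alpha globins and the adult beta globins. Developing red cells make heme through Alas2, the enzyme of its first step that is particular to the erythroid line, and take up iron through the transferrin receptor. Slc4a1 encodes band 3, the anion exchanger of the red cell membrane, and Bpgm encodes the enzyme that makes bisphosphoglycerate, which lowers the oxygen affinity of hemoglobin. The brain makes no red cells, so such transcripts in a dissected forebrain are usually read as those of blood in its vessels, although Bpgm and several of the other genes are also transcribed outside the erythroid line. In bulk tissue, fewer cells of a type and less RNA per cell cannot be told apart.

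The stretches just before the transcription start are shown because the genes moved together in part of the arrays, and because promoters of erythroid genes are known for short motifs that GATA and Krüppel-like factors bind. RefSeq promoter sequences on GRCm38.p6 were at hand for 5 of the genes (Hbb-bs, Hbb-y, Hba-x, Alas2 and Bpgm), and the 150 bases before the start are printed 5′ to 3′ on the strand of the gene, with matches to the searched motifs on either strand in capitals (those of Alas2 are on the other strand).
Hbb-bs, chr7:103827929-103828078, minus strand: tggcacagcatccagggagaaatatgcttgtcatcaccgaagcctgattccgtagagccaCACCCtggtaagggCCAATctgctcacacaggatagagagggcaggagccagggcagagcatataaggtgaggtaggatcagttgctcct
Hbb-y, chr7:103853208-103853357, minus strand: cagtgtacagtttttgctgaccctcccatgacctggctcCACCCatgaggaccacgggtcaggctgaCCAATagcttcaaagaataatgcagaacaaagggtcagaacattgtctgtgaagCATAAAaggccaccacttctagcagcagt
Hba-x, chr11:32276450-32276599, plus strand: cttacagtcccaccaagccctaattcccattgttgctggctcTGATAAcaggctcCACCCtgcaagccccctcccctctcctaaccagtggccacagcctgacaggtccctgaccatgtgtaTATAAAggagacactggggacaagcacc
Alas2, chrX:150547267-150547416, plus strand: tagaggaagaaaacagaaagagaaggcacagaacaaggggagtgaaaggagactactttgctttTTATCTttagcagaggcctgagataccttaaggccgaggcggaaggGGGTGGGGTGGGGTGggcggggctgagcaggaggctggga
Bpgm, chr6:34476206-34476355, plus strand: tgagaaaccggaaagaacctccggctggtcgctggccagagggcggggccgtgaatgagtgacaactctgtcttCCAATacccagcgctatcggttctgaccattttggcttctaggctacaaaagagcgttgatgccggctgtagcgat
The GATA motif was searched on both strands over the 250 bases before the start, as AGATAA or its variants, which were AGATAG, further TGATAA, further TGATAG. The CACCC motif, the CCAAT motif, then the TATA motif (TATAAA, otherwise CATAAA) were searched likewise. Overlapping matches were counted once per motif and gene. A GATA motif was found in 4 of the 5 promoters, against 26.5% of the 32851 promoters in the RefSeq table, and CACCC in 4 of 5, against 52.0%. CCAAT was found in 3 of 5, against 33.8%, and a searched TATA word in 3 of 5, against 20.9%. The printed Hbb-bs stretch holds catataagg near its end, which neither searched TATA word matches. The count therefore does not show that Hbb-bs lacks a TATA box. Bpgm had CCAAT alone and no GATA, CACCC or TATA match over the 250 bases. Some counted matches lie before the printed stretch and so are not in its capitals. Among them are the GATA matches of Hbb-bs (bases -210 to -205 from the start) and Hbb-y (-162 to -157). The only TATA match of Alas2 (-209 to -204, on the other strand) is also among them. The matches describe these windows and were not measured here.

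The adult beta globin genes were higher in the powder chow forebrains. Hbb-b1 had log2 values of 10.64, 10.93, 10.45, 11.05 and 10.57 in powder chow animals 87, 88, 108, 111 and 115, against 10.11, 10.17, 8.86, 8.04 and 8.36 in pelleted chow animals 05, 07, 09, 11 and 15. The diets did not overlap for this gene, but pelleted chow animals 05 and 07 came close to the lowest powder chow array, while animals 11 and 15 were the farthest from it. The mean was 10.73 ± 0.25 on powder chow and 9.11 ± 0.99 on pelleted chow (SD, n = 5 each), a log2 difference of 1.62 (standard error 0.36) or 3.07-fold. Hbb-bs, the adult beta globin of the C57BL/6 haplotype, had 12.27, 12.43, 12.18, 12.63 and 12.31 on powder chow, against 12.01, 11.95, 11.50, 10.75 and 11.29 on pelleted chow, in the same order of animals. Again no powder chow array fell into the range of the pelleted chow arrays, and animals 05 and 07 were the nearest to it. The difference was 0.86 (standard error 0.20), or 1.82-fold. Hbb-b1 is the corresponding adult gene of another mouse haplotype and is nearly identical in sequence, so the 2 probe sets can read the same transcripts and are uncertain as separate measurements.

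**Figure D1:**
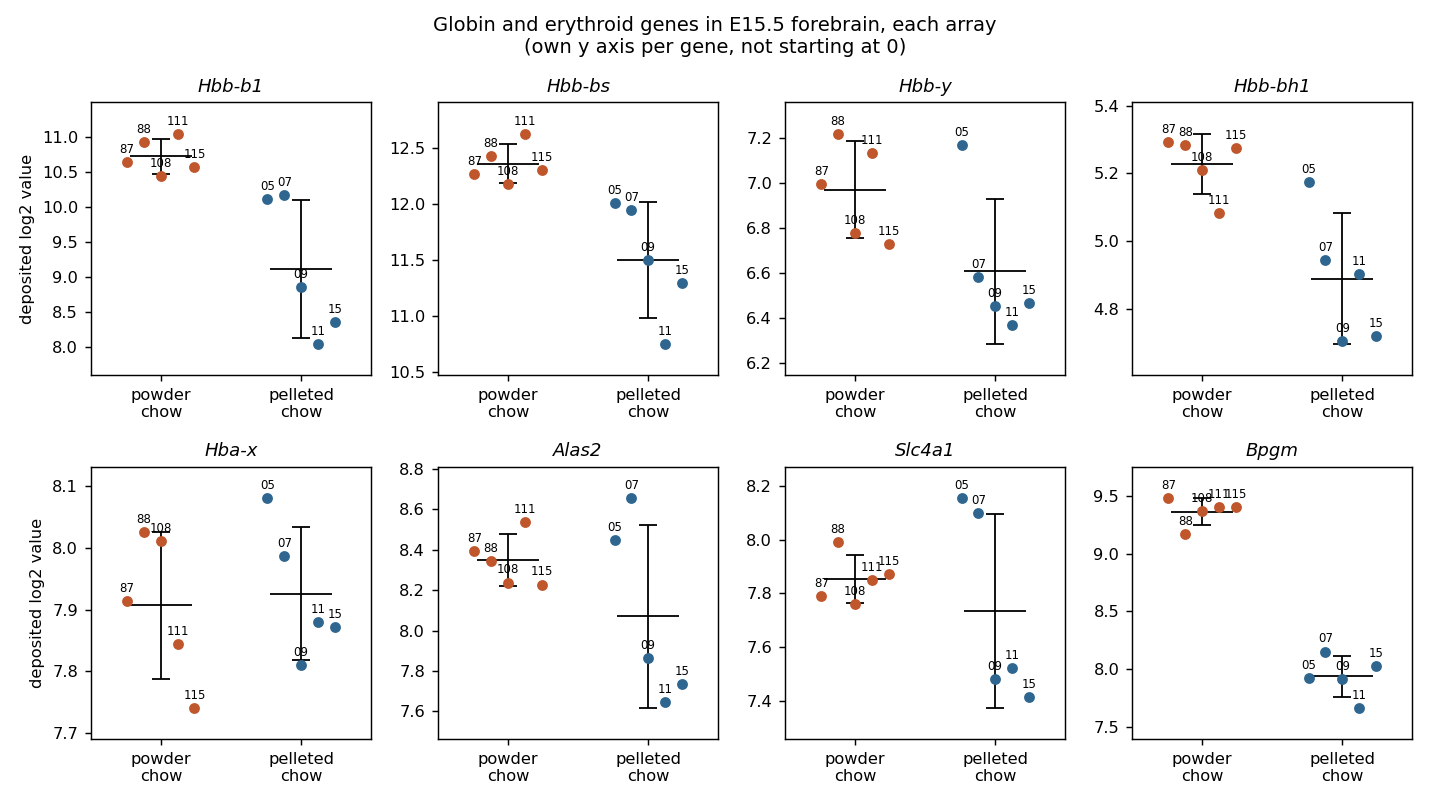
Deposited log2 values (y axis, own range per gene, not starting at 0) of the 8 measured genes in each array, powder chow on the left and pelleted chow on the right of every panel; points carry the animal number, and the bars give mean and SD of 5 arrays. For Hbb-b1, Hbb-bs, Alas2 and Slc4a1 pelleted chow animals 05 and 07 stand above animals 09, 11 and 15, and for Bpgm all 5 powder chow arrays stand more than 1 log2 unit above all pelleted chow arrays.

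The embryonic globins differed less, and one of them not at all beyond its spread. Hbb-bh1 had 5.29, 5.28, 5.21, 5.08 and 5.27 on powder chow, against 5.18, 4.95, 4.71, 4.90 and 4.72 on pelleted chow. Pelleted chow animal 05 lay among the powder chow arrays, and the other 4 lay below all of them. Its difference was 0.34 (standard error 0.09), but all 10 values were under the lower quartile of their array, which ran from 6.33 to 6.53 over the arrays, and the table holds no detection calls that would show whether the probe set was above background. Hbb-y, the main beta-like chain of yolk sac red cells, had 7.00, 7.22, 6.78, 7.13 and 6.73 on powder chow, against 7.17, 6.58, 6.45, 6.37 and 6.47 on pelleted chow, a difference of 0.36 (standard error 0.14). Here too pelleted chow animal 05 was as high as the powder chow arrays, and the other 4 were lower than the lowest of these. Array 05 had the highest lower quartile of the 10 arrays (6.53). It was also the highest array for Gata1 (6.61) and Hbq1b (7.76), though not for Klf1 or Hbq1a. The part of this in its globin values was not tested. Without animal 05 the difference of Hbb-y was 0.50. With all arrays it did not pass limma's test (adjusted p = 0.0574), but did after quantile (0.0421) or cyclic loess (0.0343) normalization. Hba-x, the zeta-like alpha chain of the same cells, had 7.91, 8.03, 8.01, 7.84 and 7.74 on powder chow, against 8.08, 7.99, 7.81, 7.88 and 7.87 on pelleted chow, so the diets overlapped over most of their range. The difference of -0.02 (standard error 0.07) was smaller than its error and changed sign to 0.02 with array quality weights and to 0.0042 with cyclic loess normalization.

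Because all globins were read on the same array, their differences between the diets can be set side by side without comparing their levels. Relative to Hbb-bs in the same array, Hbb-y was 0.50 lower on powder chow than on pelleted chow, Hbb-bh1 was 0.52 lower and Hba-x was 0.88 lower on the log2 scale. The SD of these within-array values was 0.15 on powder chow and 0.36 on pelleted chow for Hbb-y (n = 5 each), 0.24 and 0.45 for Hbb-bh1, and 0.23 and 0.45 for Hba-x. The differences of the embryonic chains were thus smaller than that of Hbb-bs. A log2 value near the floor of an array, as for Hbb-bh1, can understate a change. Hbb-y was under the lower quartile in 1 of the 10 arrays and Hba-x in 0. The part of the signal level in these differences was not tested. Relative to Hbb-bs, Alas2 was 0.58 lower and Slc4a1 0.74 lower on powder chow, while Bpgm was 0.56 higher and Hbb-b1 0.76 higher. The within-array values of Hbb-b1 had an SD of 0.10 on powder chow and 0.52 on pelleted chow, and since the 2 adult probe sets differ in this way, all of these values depend on which of them is subtracted.

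Alas2 and Slc4a1 separated the pelleted chow embryos from each other more than they separated the diets. Alas2 had 8.39, 8.34, 8.24, 8.54 and 8.23 on powder chow, against 8.45, 8.66, 7.86, 7.65 and 7.74 on pelleted chow. Animal 07 was the highest of the 10 arrays and animal 05 the third, whereas animals 09, 11 and 15 were the 3 lowest. The mean was 8.35 ± 0.13 on powder chow and 8.07 ± 0.45 on pelleted chow (SD, n = 5 each), a difference of 0.28 (standard error 0.17). Slc4a1 had 7.79, 7.99, 7.76, 7.85 and 7.87 on powder chow, against 8.16, 8.10, 7.48, 7.52 and 7.41 on pelleted chow. Pelleted chow animals 05 and 07 were above every powder chow array, and animals 09, 11 and 15 were below every one of them. The resulting difference was 0.12 (standard error 0.14), with means of 7.85 ± 0.09 on powder chow and 7.73 ± 0.36 on pelleted chow (SD, n = 5 each). Both differences changed in size with single arrays but kept their sign. Without any one array that of Alas2 ran from 0.17 to 0.42 (highest without pelleted chow animal 07) and that of Slc4a1 from 0.04 to 0.22 (highest without pelleted chow animal 05). With pelleted chow animals 05 and 07 left out together they were 0.60 and 0.38. Nothing is read from this, since the values within pelleted chow were part of the choice of the genes.

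Bpgm showed the clearest separation of the diets among the 8 genes. Its values were 9.48, 9.17, 9.37, 9.40 and 9.40 on powder chow, against 7.93, 8.15, 7.91, 7.67 and 8.03 on pelleted chow. The lowest powder chow array was more than 1 log2 unit above the highest pelleted chow array, and pelleted chow animal 05 did not stand out. The mean was 9.36 ± 0.12 on powder chow and 7.94 ± 0.18 on pelleted chow (SD, n = 5 each), a difference of 1.43 (standard error 0.09) or 2.69-fold.

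In the limma comparison of all 21225 probe sets, 21.2% were higher and 21.8% were lower on powder chow at an adjusted p under 0.05, so a difference of this kind was common in these arrays. The same shares belong beside the counts of every other list below, and nothing is read from those counts. Of the 8 genes, 4 were past that limit as higher (Hbb-b1, Hbb-bs, Hbb-bh1 and Bpgm) and 0 as lower. At the stricter limits of the study's methods, which ask for a change of more than 1.5-fold with p below 0.001 before and below 0.01 after adjustment, 3 of 8 were higher with limma's p-values (Hbb-b1, Hbb-bs and Bpgm), against 4.84% of all probe sets. By the methods' t-test, to which the study applied these limits, 1 of 8 was higher (Bpgm), against 4.57% of all probe sets. All powder chow values lay above all pelleted chow values for 3 of 8 genes, against 16.9% of all probe sets, and below them for 0 of 8, against 15.7%. The genes were chosen on this contrast, so nothing is read from these counts. The median difference of the 8 genes was 0.35, and that of all probe sets was -0.02.

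The spread within a diet was the other value by which the genes were chosen. For 5 of the 8 genes (Hbb-b1, Hbb-bs, Hbb-bh1, Alas2 and Slc4a1) the SD over the pelleted chow arrays was more than 2 times that over the powder chow arrays, which held for 17.6% of all probe sets. On powder chow, the SDs of Hbb-b1, Hbb-bs, Alas2, Slc4a1 and Hbb-y were larger than those of 94.8%, 81.7%, 63.7%, 39.4% and 90.9% of all probe sets, and on pelleted chow they were larger than those of 99.9%, 99.7%, 99.5%, 98.6% and 97.9%. Bpgm (57.3% on powder chow, 83.3% on pelleted chow) and Hba-x (59.0% on powder chow, 47.0% on pelleted chow) were less extreme. In 7 of the 8 genes, all but Bpgm, pelleted chow animals 05 and 07 were both above animals 09, 11 and 15, an order found in 10.7% of all probe sets.

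**Figure D2:**
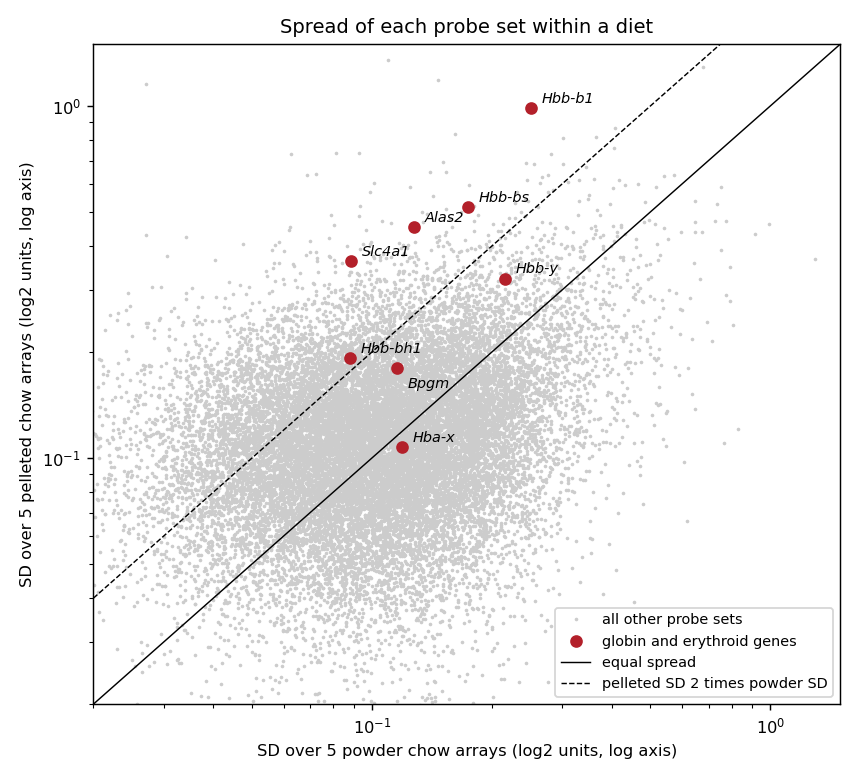
SD of each probe set over the 5 powder chow arrays (x axis) and over the 5 pelleted chow arrays (y axis), both in log2 units on log axes, with 159 of the 21225 probe sets outside the drawn range; the solid line marks equal spread and the dashed line a pelleted chow SD 2 times the powder chow SD. Hbb-b1, Hbb-bs, Alas2 and Slc4a1 lie well above the dashed line, while Hba-x lies just under the solid line.

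After the mean of each diet was subtracted, the diet difference could not contribute. The unequal values among the pelleted chow embryos, by which the genes were also chosen, remained, so the r values are given as a description. Likeness was highest among Alas2, Hbb-b1, Hbb-bs and Slc4a1, without a sharp split from the rest. Over the 10 arrays Alas2 had a Pearson r of 0.97 with Hbb-b1, 0.90 with Slc4a1 and 0.89 with Hbb-bs, and Hbb-b1 had an r of 0.95 with Hbb-bs and 0.92 with Slc4a1. Slc4a1 had an r of 0.78 with Hbb-bs, level with its 0.78 with Hbb-bh1, and 0.70 with Hbb-y. Hbb-b1 had an r of 0.71 with Hbb-y, whereas Hbb-bs had 0.34 with Hbb-bh1 and 0.38 with Hba-x. The r of Alas2 was 0.63 with Hbb-y, 0.51 with Hbb-bh1, 0.51 with Hba-x and 0.55 with Bpgm. Bpgm had an r between -0.07 and 0.56 with the other 7 genes, lowest with Hbb-bh1 and highest with Hbb-bs. These values describe 10 arrays of 2 diets, rest mostly on the 5 pelleted chow arrays and share the normalization of the table. Hbb-b1 and Hbb-bs can read the same transcripts, so their likeness does not describe 2 separate genes.

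Slc25a37, which encodes mitoferrin, the carrier that brings iron into the mitochondria of developing red cells, was the named gene most like Alas2 outside the 8 genes (r = 0.98 within diets over 10 arrays). It had 8.23, 8.22, 8.25, 8.32 and 8.19 on powder chow, against 8.28, 8.46, 7.68, 7.59 and 7.65 on pelleted chow. As for Alas2, animals 05 and 07 were level with or above most powder chow arrays and animals 09, 11 and 15 were below all of them, and the difference of 0.31 (standard error 0.15) did not pass limma's test (adjusted p = 0.110). The next genes in likeness to Alas2 within diets were 1600029O15Rik, Pik3r3 (a regulatory subunit of phosphoinositide 3-kinase), F2r (the thrombin receptor) and Adipor2 (an adiponectin receptor), with r of 0.97, 0.97, 0.96 and 0.95. Over the arrays as they are, Slc25a37 again came first (r = 0.98), followed by Pimreg, Csrp2, Lmntd2 and Pmpcb with r of 0.94, 0.92, 0.92 and 0.91. The lists of related genes went both ways in likeness to Alas2 within diets. Iron genes ran from 0.98 (Slc25a37) to -0.72 (Slc40a1) and heme synthesis from 0.75 (Uros) to -0.60 (Alad). Erythroid transcription factors ran from 0.41 (Sox6) to -0.61 (Zfpm1).

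**Figure D3:**
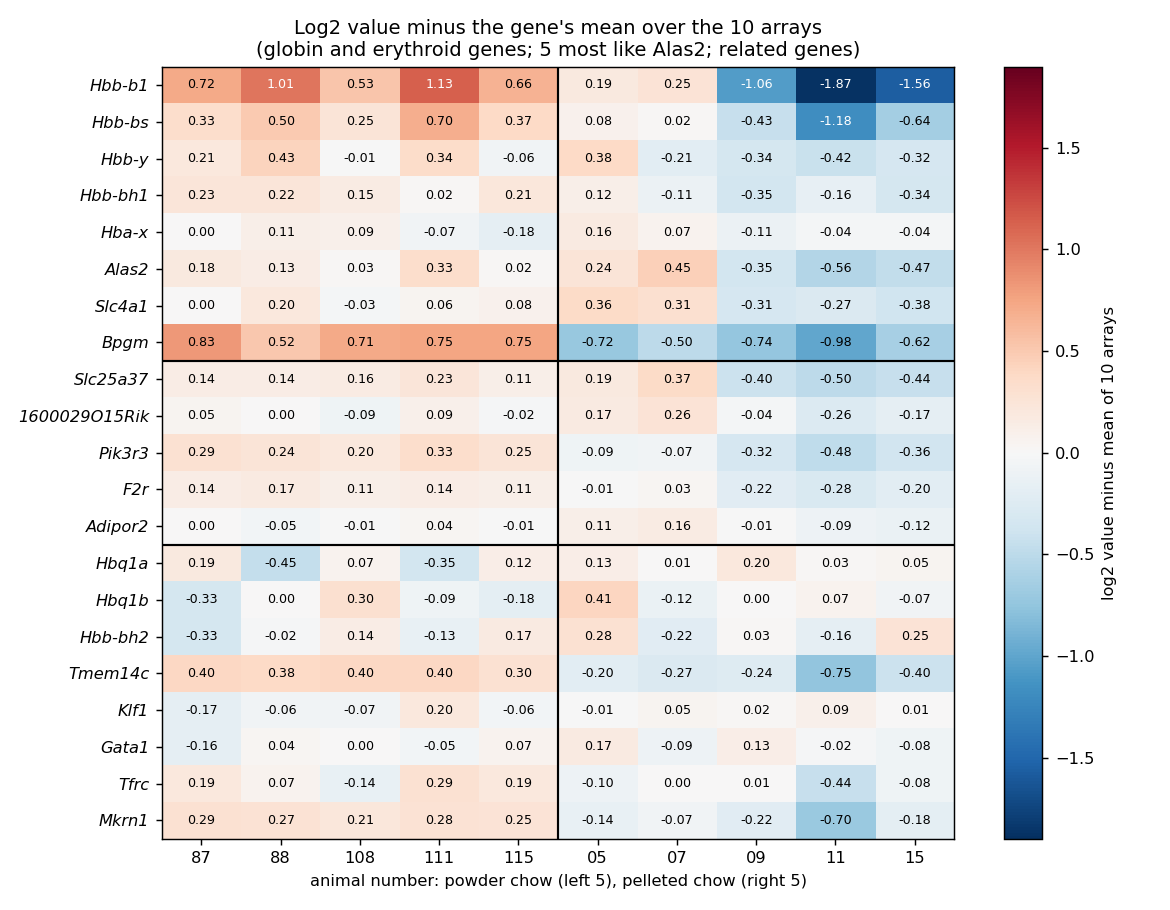
Log2 value minus the gene's own mean over the 10 arrays, by gene (rows) and animal (columns, powder chow left, pelleted chow right), for the 8 genes (top), the 5 genes most like Alas2 within diets (middle) and related genes (bottom). Slc25a37 shows the same order among the pelleted chow arrays as Alas2, from 0.37 in animal 07 to -0.50 in animal 11, while Gata1, Klf1 and the other globins show no such order.

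The genes most like the other anchors, Hbb-bh1 and Bpgm, included none from the lists of red cell, heme or iron genes. Among those most like Alas2 only Slc25a37 was from such a list. Closest to Hbb-bh1 within diets were Dlx1, a transcription factor gene of forebrain interneurons, Troap, Draxin (an axon guidance gene), Aoah and Mrgprb3, with r of 0.95, 0.95, 0.94, 0.94 and 0.93, and over the arrays as they are Dlx1, Troap, Draxin, Rad51b and Masp1, with r of 0.98, 0.98, 0.97, 0.95 and 0.95. Hbb-bh1 lies at the low end of the array, which limits what its likeness can describe. Closest to Bpgm within diets were Magt1, Tmtc4, Oat (ornithine aminotransferase), Elp3 and Zfp667, with r of 0.95, 0.95, 0.94, 0.94 and 0.94. Over the arrays as they are they were Isy1, Scaf11, Sf3b2, Syf2 and Rab3ip, each with r between 0.995 and 0.997, and Sf3b2, a splicing factor gene, was 1.03 higher on powder chow.

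The other measured globin genes were not past the limit. Of the 3, 0 were higher and 0 were lower at an adjusted p under 0.05, with a median difference of -0.12. Hbq1b, a theta globin gene, had 7.02, 7.35, 7.65, 7.26 and 7.17 on powder chow, against 7.76, 7.23, 7.35, 7.42 and 7.28 on pelleted chow, and differed by -0.12 (standard error 0.12, adjusted p = 0.458). The values of the diets ran through each other. Hbq1a, its near-identical copy, had a difference of -0.17 (adjusted p = 0.267) and was under the lower quartile of all 10 arrays, and Hbb-bh2 had a difference of -0.07 (adjusted p = 0.656). Hbb-bh2 lies between Hbb-bs and Hbb-bh1 in the order of genes of the RefSeq table. The probes of Hbq1a and Hbq1b can read each other's transcripts, so their values are uncertain as separate measurements.

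Genes of heme synthesis went both ways. Of 13 measured genes other than Alas2, 3 were higher, 4 were lower and 6 did not pass, with a median difference of 0.04. Tmem14c, which carries heme precursors into the mitochondrion, had 9.75, 9.73, 9.75, 9.75 and 9.65 on powder chow, against 9.16, 9.09, 9.11, 8.61 and 8.95 on pelleted chow, without overlap and with animal 11 the lowest. It rose by 0.75 (standard error 0.09, adjusted p = 2.31e-05 from limma). The other higher genes, named after their values were seen, were Alas1 and Cpox. Alas1 rose by 0.39 (standard error 0.08, adjusted p = 0.00165) and Cpox by 0.23 (adjusted p = 0.00708). Urod, a decarboxylase in the middle of the pathway, was lower on powder chow, at 8.19 to 8.36 with a median of 8.23, against 8.50 to 8.93 with a median of 8.89 on pelleted chow. It fell by 0.57 (standard error 0.08, adjusted p = 8.53e-05). The mitochondrial carriers Slc25a39 and Slc25a38, the second of which brings in glycine for heme, fell by 0.37 and 0.35 (adjusted p = 2.08e-04 and 0.00165). Alad, the enzyme of the second step, was named after its values were seen. It had 9.25, 9.29, 9.34, 9.79 and 9.26 on powder chow, against 9.98, 10.04, 10.02, 11.02 and 11.08 on pelleted chow, and animals 11 and 15 were about 1 log2 unit above the other 3 pelleted chow embryos. It fell by 1.04 (standard error 0.22, adjusted p = 0.00175).

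**Figure D4:**
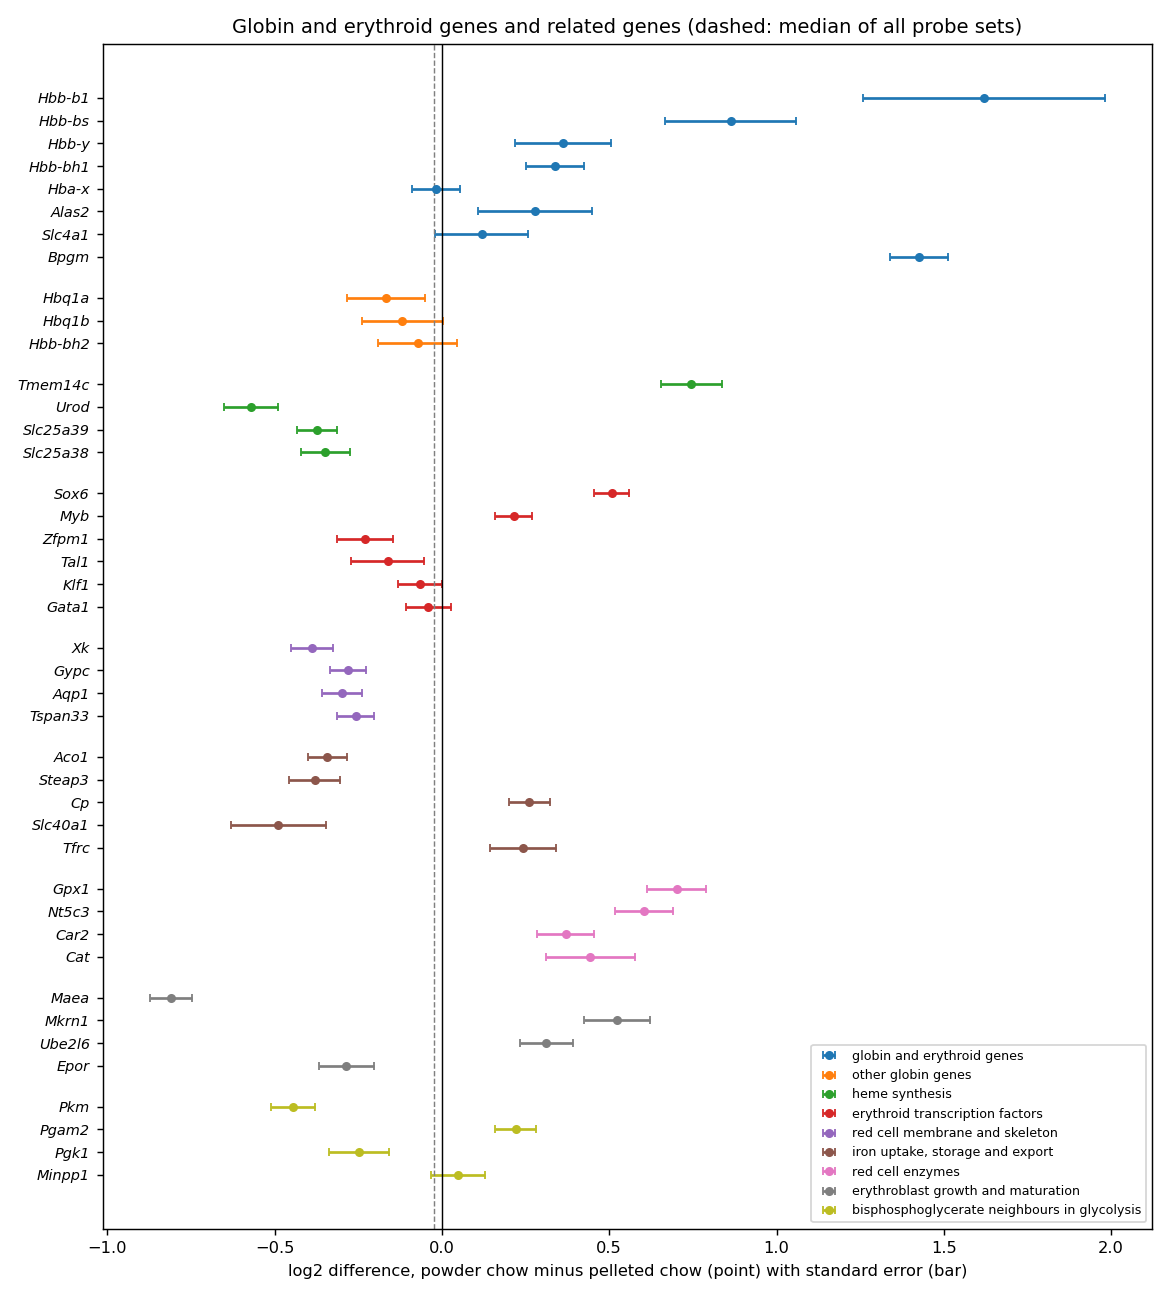
Log2 difference, powder chow minus pelleted chow (x axis, point) with its standard error (bar), for the 8 genes and for the named genes of the related lists (y axis), with a solid line at 0 and a dashed line at the median of all probe sets (-0.02). Hbb-b1 and Bpgm lie farthest to the right, Hba-x lies at 0, and the genes of heme synthesis, iron handling and red cell maturation fall on both sides of 0.

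The transcription factors that define the erythroid line were not past the limit. Gata1 had 6.28, 6.48, 6.45, 6.40 and 6.52 on powder chow, against 6.61, 6.36, 6.57, 6.42 and 6.37 on pelleted chow, and differed by -0.04 (standard error 0.07, adjusted p = 0.665) that turned to 0.01 with cyclic loess normalization. Klf1, the Krüppel-like factor that drives the adult beta globin gene, had a difference of -0.07 (standard error 0.07, adjusted p = 0.460). Gata1 was under the lower quartile of 4 of the 10 arrays and Klf1 under that of all 10, so both sat near the bottom of the array. Of 11 measured factors 2 were higher, 1 was lower and 8 did not pass, with a median difference of -0.06. Sox6, which is also a factor of cortical interneurons, rose by 0.51 (standard error 0.05, adjusted p = 6.26e-06) and Myb, a factor of blood progenitors, by 0.21 (standard error 0.06, adjusted p = 0.00657). Zfpm1, the partner of Gata1, fell by 0.23 (adjusted p = 0.0410), a call that was lost in 8 of the 10 fits that left out 1 array, and Tal1 had a difference of -0.16 (adjusted p = 0.256).

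None of the other genes of the red cell membrane was higher. Of 15 measured genes 0 were higher (21.2% of all probe sets), 4 were lower (21.8% of all probe sets) and 11 did not pass, with a median difference of -0.05. The lower ones were Xk at -0.39 (standard error 0.06, adjusted p = 2.18e-04), Gypc, the glycophorin C gene, at -0.28 (adjusted p = 8.81e-04), the water channel gene Aqp1 at -0.30 (adjusted p = 0.00130) and Tspan33 at -0.26 (adjusted p = 0.00219). Rhag, Epb42, Rhd and Kel, whose products sit in or under the red cell membrane, were under the lower quartile of all 10 arrays, with differences of -0.11, -0.05, 0.03 and -0.11. Within diets the r of the 15 genes with Alas2 ran from -0.77 (Tspan33) to 0.18 (Epb42). Tspan33, Dmtn (r = -0.76) and Xk (r = -0.39) were above the lower quartile in every array. The label of the set as erythroid therefore rests mainly on the adult beta globins, Alas2 and Slc4a1. Several defining red cell genes, and Hbb-bh1 among the globins, were at the low end of the array in every embryo.

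Iron genes also went both ways. Of 12 measured genes 3 were higher, 4 were lower and 5 did not pass, with a median difference of 0.16. Tfrc, the transferrin receptor gene, had 9.24, 9.12, 8.91, 9.34 and 9.24 on powder chow, against 8.95, 9.05, 9.06, 8.61 and 8.97 on pelleted chow. Animal 108 on powder chow lay among the pelleted chow arrays, animal 11 was the lowest of all, and the difference of 0.24 (standard error 0.10) did not pass (adjusted p = 0.0614), but did without powder chow animal 108 (0.31, adjusted p = 0.0152). Aco1, whose protein binds iron-responsive elements when iron is scarce, fell by 0.34 (standard error 0.06, adjusted p = 3.84e-04), and Steap3, a ferrireductase of erythroid iron uptake, by 0.38 (adjusted p = 0.00116). Cp, ceruloplasmin, rose by 0.26 (adjusted p = 0.00373). Slc40a1, the iron exporter ferroportin, had 7.76, 7.84, 7.92, 7.98 and 7.73 on powder chow, against 7.88, 8.09, 8.46, 8.41 and 8.84 on pelleted chow. Animals 05 and 07, the highest pelleted chow embryos for the adult globins, were the lowest for this gene, and it fell by 0.49 (standard error 0.14, adjusted p = 0.0131), although it did not pass the methods' t-test (adjusted p = 0.0522).

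Red cell enzymes, apart from Bpgm, were higher where they passed. Of 9 measured genes 4 were higher (21.2% of all probe sets), 0 were lower (21.8% of all probe sets) and 5 did not pass, with a median difference of 0.16. Gpx1, glutathione peroxidase, had 10.38, 10.39, 10.17, 10.35 and 10.13 on powder chow, against 9.32, 9.57, 9.66, 9.81 and 9.55 on pelleted chow. No arrays overlapped, and pelleted chow animal 05 was the lowest, unlike for the globins. Gpx1 rose by 0.70 (standard error 0.09, adjusted p = 2.86e-05), Nt5c3, a nucleotidase of maturing red cells, by 0.60 (adjusted p = 9.29e-05), Cat, catalase, by 0.44 (adjusted p = 0.0157, or 0.0568 by the methods' t-test) and Car2, carbonic anhydrase, by 0.37 (adjusted p = 0.00318). All 4 are also transcribed in other tissues.

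Among genes of erythroblast growth and maturation 2 of 12 were higher (21.2% of all probe sets), 3 were lower (21.8% of all probe sets) and 7 did not pass. Their median difference was 0.02. Maea, a protein of erythroblast islands and of a ubiquitin ligase, fell by 0.81 (standard error 0.06, adjusted p = 5.12e-07). Mkrn1 and Ube2l6, both of ubiquitination, rose by 0.52 (standard error 0.10, adjusted p = 8.08e-04) and 0.31 (adjusted p = 0.00583). Epor, the erythropoietin receptor, fell by 0.29 (adjusted p = 0.0123). Tent5c, named after its values were seen, had 7.95 to 8.23 on powder chow, against 8.08, 8.17, 7.33, 7.45 and 7.82 on pelleted chow. Its order among the pelleted chow embryos was like that of Alas2 (r = 0.82 within diets over 10 arrays), and its difference of 0.29 (standard error 0.14) did not pass (adjusted p = 0.120). The rest of the list went both ways in this likeness to Alas2. Ube2l6, Mkrn1, Cldn13 and Bnip3l had an r of 0.86, 0.68, 0.42 and 0.34. Trim10, Hemgn, Kit, Maea, Trim58, Xpo7 and Epor had an r of -0.04, -0.05, -0.05, -0.28, -0.36, -0.38 and -0.56.

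The glycolytic neighbours of Bpgm went both ways. Of 4 measured genes 1 was higher, 2 were lower and 1 did not pass, with a median difference of -0.10. Pgk1, which uses the substrate of Bpgm, had 8.24, 7.87, 7.93, 7.95 and 7.85 on powder chow, against 8.22, 8.08, 8.07, 8.26 and 8.46 on pelleted chow, and fell by 0.25 (standard error 0.09, adjusted p = 0.0408), a call that was lost in 7 of the 10 fits that left out 1 array. Animal 87 on powder chow was as high as the pelleted chow arrays. Pkm, pyruvate kinase, fell by 0.45 (standard error 0.06, adjusted p = 9.58e-05), Pgam2, a mutase related to Bpgm, rose by 0.22 (adjusted p = 0.0102) at a level near the lower quartile, and Minpp1, a phosphatase that also acts on bisphosphoglycerate, had a difference of 0.05 (adjusted p = 0.667).

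Markers of other cells of blood, vessels and coverings of the brain were read beside these values. Beside the counts of all the marker lists stand 21.2% of all probe sets higher and 21.8% lower. Of the 6 measured platelet and megakaryocyte markers, 0 were higher and 3 were lower on powder chow (Gp1bb, Treml1 and Itga2b at -0.62, -0.23 and -0.16, adjusted p = 1.10e-05, 0.00672 and 0.0425), with Ppbp at -0.25 (adjusted p = 0.0628) and a median difference of -0.20. The call of Itga2b was lost in 9 of the 10 fits that left out 1 array. Their mean log2 value ran from 6.98 to 7.20 on powder chow and from 7.29 to 7.42 on pelleted chow. Of 8 granulocyte markers 1 was higher and 0 were lower, with S100a8 at 0.22 (adjusted p = 0.0416), Camp at -0.15, Ngp at 0.11 and Ltf at 0.03, and a median difference of 0.02. S100a8, Ngp and Ltf were under the lower quartile of all 10 arrays, and the call of S100a8 was lost in 7 of the 10 fits that left out 1 array. The granulocyte mean ran from 6.19 to 6.44 on powder chow and from 6.15 to 6.44 on pelleted chow, which are nearly the same ranges.

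Microglia and macrophage markers went both ways, with 3 of 11 higher and 3 lower and a median difference of -0.06. Tyrobp, Cx3cr1 and C1qc fell by 0.41, 0.37 and 0.45 (adjusted p = 1.70e-04, 4.82e-04 and 7.18e-04) and Csf1r rose by 0.29 (adjusted p = 0.00524), and the mean ran from 7.52 to 7.67 on powder chow and from 7.48 to 7.71 on pelleted chow. Of 12 endothelial markers, which mark the vessels that hold the blood, 3 were higher and 4 were lower, with a median difference of -0.09. Kdr, a receptor of vascular growth factor, rose by 0.68 (standard error 0.05, adjusted p = 6.56e-07), whereas Esam, Slc2a1 and Egfl7 fell by 0.87, 0.52 and 0.24 (adjusted p = 9.81e-06, 4.46e-05 and 0.00224), and the mean ran from 8.80 to 8.89 on powder chow and from 8.90 to 8.97 on pelleted chow. Pelleted chow animals 05 and 07 were not above animals 09, 11 and 15 in the endothelial mean, where they had 8.90 and 8.93, against 8.95 to 8.97 in those 3. They were above them in the platelet and megakaryocyte mean, at 7.42 and 7.42, against 7.29 to 7.34, and in the mean of the 12 genes of erythroblast growth and maturation, at 8.25 and 8.22, against 8.09 to 8.17. In the means of the other globins, heme synthesis, erythroid transcription factors, red cell membrane, iron genes and red cell enzymes, animals 05 and 07 were not both above those 3. For the transcription factors they had 8.37 and 8.35, against 8.37 to 8.42, and for the membrane genes 7.46 and 7.43, against 7.43 to 7.56. The part of blood and vessel cells in the globin values was not tested.

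Pericyte markers went both ways as well, with 2 of 6 higher and 2 lower and a median difference of 0.02. Abcc9 and Rgs5 rose by 0.49 and 0.20 (adjusted p = 2.36e-05 and 0.0280, the call of Rgs5 being lost in 5 of the 10 fits that left out 1 array), Pdgfrb and Cspg4 fell by 0.39 and 0.30 (adjusted p = 9.73e-04 and 0.00667), and the mean ran from 8.78 to 8.95 on powder chow and from 8.82 to 9.01 on pelleted chow. Of 6 meningeal fibroblast markers 4 were higher and 0 were lower, namely Col3a1 at 0.75 (standard error 0.05, adjusted p = 1.14e-07), Foxc1 at 0.36 (adjusted p = 9.72e-04), Dcn at 0.26 (adjusted p = 0.0167) and Col1a2 at 0.24 (adjusted p = 0.00766), and the mean ran from 8.89 to 9.06 on powder chow and from 8.59 to 8.75 on pelleted chow, without overlap and with a median difference of 0.26. Of 9 forebrain markers 5 were higher and 0 were lower, including Eomes at 0.66 (adjusted p = 1.49e-04), Tbr1 at 0.46 (adjusted p = 2.85e-05), Pax6 at 0.25 (adjusted p = 0.0102) and Dlx1 at 0.24 (adjusted p = 0.0144), with a median difference of 0.20, and all 9 were above the lower quartile in every array. The part of blood content, dissection or cell makeup in the values of the globin genes was not tested.

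The diets stood apart over the whole table, with 63.0% of the variance on the first principal component, and pelleted chow animal 05 lay farthest out on the second component, at 24.0 against -10.5 to 12.5 for the other 9 arrays. Powder chow embryos carry the animal numbers 87 to 115 and pelleted chow embryos 5 to 15, and the labels give no slide, scan date, sex or litter, so a difference in the time of collection or of array work and the diet cannot be told apart.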

How the data were processed

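The authors deposited log2 expression values of 10 Affymetrix arrays, computed by robust multichip averaging (RMA, also named in the submitters' processing notes) and version 15 of the MBNI custom probe definition, with 1 value per Entrez gene. The genome build behind it is not given in the sources used here. RMA quantile-normalizes the arrays, so a shift of all genes cannot be seen, and log2 values near background understate changes. Symbols came from the platform annotation, updated by Entrez number, for 20239 of 21225 probe sets. The values were used as deposited, without a filter. Diets were compared as powder minus pelleted chow with limma (lmFit and eBayes, no covariates, Benjamini-Hochberg adjustment over all 21225 probe sets). The number of arrays sets the precision, and the median standard error was 0.0723. Each array is 1 embryo of its own litter.

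The 9 genes and the 15 other lists (137 of 154 genes measured) were chosen with earlier results of these data known. Named from them were the 9 genes, all measured other globins, Gata1, Klf1 and Tfrc, the 4 genes of lowest p of every list, and the 5 genes most like Alas2, Hbb-bh1 and Bpgm. Likeness is Pearson's r over 10 arrays, within diets (diet means subtracted) or as they are. Alternatives were array quality weights, the methods' t-test, limma with trend and robust prior, quantile, median and cyclic loess normalization, leaving out probe sets under the median level, the limits of the methods, and leaving out each array, and animals 05 and 07 together, and, added after seeing the data, the limits of the methods on their t-test. The fit was tested on simulated data. R 4.3.3, limma 3.58.1, Python 3.11.15, pandas 2.3.3, numpy 2.4.6 and matplotlib 3.10.9 were used.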

Additional observations from a re-analysis of the deposited data

Results flagged for a closer look

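Looked at were 130 groups of 5 arrays (65 named genes in each diet). The 8 globin and erythroid genes were left out because their spread was part of their choice. In 12 groups the highest or lowest array had a gap to the next of more than 0.71 of the whole range. This is Dixon's limit for 5 values, where chance gives about 1 in 20. Many of the genes were named for a low p or after their values were seen, and all groups share the same 10 arrays. The 1 in 20 is therefore no measure for the count of 12. Pelleted chow animal 11 stood apart 4 times, at 8.50 for Urod (the others 8.87 to 8.93), 8.61 for Tfrc (8.95 to 9.06), 9.30 for Mkrn1 (9.78 to 9.93) and 8.79 for Zfpm1 (8.32 to 8.45). Pelleted chow animal 05 was low for Maea, at 10.43 (10.64 to 10.69), and animal 07 was low for Epor, at 6.87 (7.13 to 7.24). On powder chow, animal 111 stood apart at 9.79 for Alad (9.25 to 9.34), 8.28 for Cp (8.03 to 8.09) and 8.82 for Abcc9 (8.98 to 9.04). Animal 115 was low for Tmem14c, at 9.65 (9.73 to 9.75), animal 108 was high for Zfpm1, at 8.43 (8.17 to 8.24), and animal 87 was high for Pgk1, at 8.24 (7.85 to 7.95).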

How the results depend on the processing

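The number of globin and erythroid genes past an adjusted p of 0.05 (limma) was 4 and ran from 3 to 5 over all but 2 of the alternatives, given next. With pelleted chow animals 05 and 07 left out together it was 7, while the calls over all probe sets were 8446, against 9146 with all arrays, and the number with a pelleted chow SD more than 2 times the powder chow SD was 1, against 5 with all arrays and 4 to 6 without any single array. The low values of the other 3 pelleted chow embryos were part of the choice of the genes, so nothing is read from these counts. At the limits of the methods the calls over all probe sets fell to 1755 and those in the other lists to 10, against 63. With these limits on the methods' t-test, a setting added after seeing the data, the counts were 1 of the 8 genes, 1647 of all probe sets and 9 in the other lists. Hbb-b1, Hbb-bs and Bpgm kept their direction in every setting, and without any single array their differences ran from 1.35 to 1.89, 0.68 to 0.99 and 1.36 to 1.48. Without any single array the difference of Alas2 ran from 0.17 to 0.42 and that of Hbb-y from 0.30 to 0.50. The sign of Hba-x was not stable: its difference was 0.0155 with array quality weights, 0.00417 with cyclic loess normalization, 0.0532 without pelleted chow animals 05 and 07, and -0.0483 to 0.0230 without any single array. The difference of Gata1 turned to 0.00689 with cyclic loess normalization, and that of Minpp1 to -0.0548 without animals 05 and 07. Without any single array the difference of Minpp1 ran from -0.0177 (pelleted chow animal 05 left out) to 0.0982, that of Hbb-bh2 from -0.137 to 0.00229 (powder chow animal 87), and that of Ltf from -0.00907 (pelleted chow animal 07) to 0.0923. None of these passed the test. Causes of these changes were not tested. Hbb-y, Hbb-bh1 and Slc4a1 were among the dim probe sets left out. No paired analysis was possible because the labels share no replicate number between the diets. With 5 arrays per diet and no detection calls, low probe sets such as Hbb-bh1, Klf1 and Rhag are limited by signal over background.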
